A study of Mus musculus with 8 samples.

Results

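The T-box genes examined here were Tbx1, Tbx2, Tbx3, Tbx4, Tbx5, Tbx15, Tbx18, Tbx20 and Tbx22, which are 9 of the 19057 genes named on the array. They were taken by symbol and not by any measured value, with every probe that the platform annotation gives to them. The arrays compared sorted forelimb cells of mouse embryos at E12.5 labelled as null and as wildtype for Bapx1 (Nkx3-2), a homeobox gene of the developing skeleton. The Bapx1 null group held 4 samples, homozygous for an allele (tm4.Tlu) in which EGFP, a green fluorescent protein, follows the Bapx1 start codon directly and the coding sequence ends. The wildtype group held 4 samples in which EGFP was read from an internal ribosome entry site behind an intact Bapx1 (tm2.Tlu), an allele that the study writes as heterozygous. Strain (C57BL/6J and 129), stage, organ and sorting by green fluorescence were shared by both groups. Because the reporter differs between the groups in its design and in its number of copies, an effect of the reporter on which cells were sorted cannot be told apart from an effect of the genotype.

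T-box genes encode transcription factors that share a DNA-binding domain, the T-box, and several of them give parts of the limb their identity. Tbx5 starts the forelimb bud and Tbx4 acts mainly in the hindlimb. Tbx2 and Tbx3 are repressors expressed along the anterior and posterior margins of the limb bud, where they take part in digit identity. Tbx15 and Tbx18 act in mesenchyme and skeletal development, Tbx15 above all in the shoulder blade, while Tbx1, Tbx20 and Tbx22 are better known from the pharyngeal arches, the heart and the palate. Tbx2 and Tbx4 are immediate protein-coding neighbours on chromosome 11, and Tbx3 and Tbx5 are immediate neighbours on chromosome 5.

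Each array had 19840 to 20879 probes above background, and 20593 probes of 11037 genes were compared between genotypes. Values are normalized log2 intensities, log2 changes are Bapx1 null minus wildtype, and a probe was called when its adjusted p was under 0.05 over all probes tested with limma. Levels of different probes cannot be set against each other, because probes differ in brightness. Bapx1 itself was measured at 8.10, 7.81, 7.77 and 7.85 in null replicates 1 to 4 and at 4.48, 4.46, 4.53 and 4.51 in wildtype replicates 1 to 4, where it was not well above background. The null was at least 3.40-fold higher under each of 3 background treatments (adjusted p = 8.8e-08). A second probe gave the same picture, with means of 7.59 ± 0.16 in the null and 4.47 ± 0.10 in the wildtype (SD, n = 4 each), where no array detected it (at least 2.89-fold, adjusted p = 3.4e-07). Both probes passed the detection filter through the null arrays alone, so their adjusted p-values in limma are not taken as support. The level of the targeted gene thus ran against the names of the groups, since it was undetected in cells labelled wildtype that had been sorted for a reporter at its own locus. For the vertebral column, the text of the study reports more Bapx1 in null embryos by in situ hybridization. The caption of that figure describes a loss in the rostral part. Where the probes lie relative to the insertions was not analysed here, so they do not check the labels, and an exchange of labels was not tested. The groups below are the libraries as labelled, and every direction rests on those labels. Of the 12 limb mesenchyme markers on the array 9 were measured, with Twist1, Prrx1, Msx1 and Hoxa11 detected on all arrays, while Msx2, Lmx1b and Hoxd11 did not pass the filter. Of the 7 heart muscle genes on the array 1 was measured, Mef2c, which is also expressed outside the heart and was detected on all arrays, while Nkx2-5, Myh6, Myl7 and Nppa were not above background on any array.

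The arrays within the null group were not alike in ways that touch the T-box genes. The library labelled null replicate 1 carried some genes of the hindlimb although all samples are labelled as forelimb. Hoxc10, a homeobox gene of the lumbar and hindlimb level, had 7.63 in null replicate 1 by its dimmer probe, against 4.67, 4.80 and 4.48 in null replicates 2 to 4 and 4.38, 4.43, 4.37 and 4.49 in wildtype replicates 1 to 4, and no array but null replicate 1 detected it with this probe. Its brighter probe was detected on all 8 arrays and was highest on the same array, with 6.44 against 5.37, 5.42 and 5.80 in the other null replicates and 5.21, 5.72, 5.31 and 5.55 in the wildtype. Pitx1, which directs hindlimb identity, had 5.81 in null replicate 1 and between 4.46 and 4.70 in the other null samples, against 4.51 to 4.62 in the wildtype, and was likewise detected on null replicate 1 alone. Hoxc9 had 6.51, 4.65, 4.86 and 5.19 in null replicates 1 to 4, against 4.40 to 4.49 in the wildtype. All null arrays thus lay above all wildtype arrays, and 2 null arrays and no wildtype array detected it. Hoxc11 was detected on no array by either of its probes. They had 4.58 and 4.38 in null replicate 1, the highest and the lowest value of the 8 arrays. Null replicates 2 and 3 differed in another respect. Xist, the RNA of the inactive X chromosome, averaged 7.91 and 6.07 over its probes in them, against 10.13 and 10.45 in null replicates 1 and 4 and 9.92 to 10.70 in the wildtype, and their Y-linked probes averaged 8.31 and 8.45, against 7.74 and 7.66 in null replicates 1 and 4 and 7.26 to 7.66 in the wildtype. Called T-box and list genes are therefore also given without these arrays.

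The 9 members were covered by 22 probes, of which 10 probes from 7 genes were above background on at least 4 arrays. Tbx2 rose and Tbx3 fell in the Bapx1 null, so 2 of the 10 probes were called, beside 3.94% of all probes tested (1.83% were higher, 2.12% lower). Null and wildtype arrays did not overlap in 3 of the 10, beside 12.3% of all probes tested. At gene level 1 of the 7 measured members was higher and 1 lower, beside 2.44% and 2.98% of all genes, and 3 of the 7 had no overlap between genotypes, beside 14.5% of all genes. The median change of the 7 was -0.0047 beside 0.012 for all genes.

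**Figure D1:**
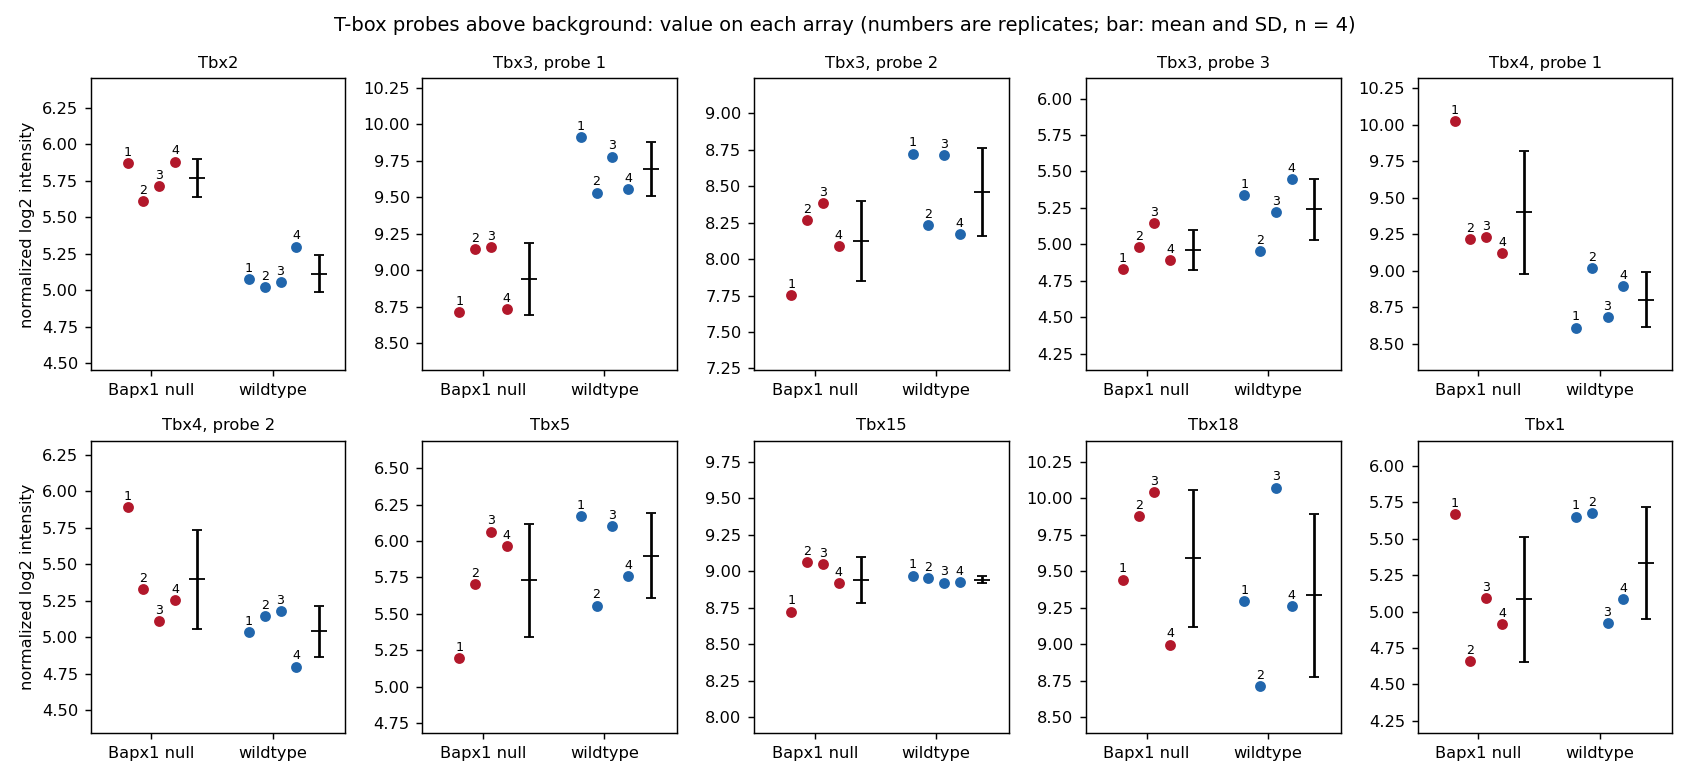
Normalized log2 intensity of the 10 T-box probes above background on each of 8 arrays, with Bapx1 null left and wildtype right. Points are single arrays numbered by replicate, bars are mean and SD (n = 4), and every panel spans the same height. The groups are apart for Tbx2, the first probe of Tbx3 and the first probe of Tbx4, and null replicate 1 stands above the other null arrays for both Tbx4 probes.

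Tbx2, a repressor that is often expressed together with Tbx3, was higher in the null. The probe had 5.87, 5.61, 5.72 and 5.88 in null replicates 1 to 4, against 5.08, 5.02, 5.06 and 5.30 in wildtype replicates 1 to 4. All 4 null arrays lay above all 4 wildtype arrays, and the probe was detected on all 4 null arrays but on 2 of the wildtype arrays, so that the wildtype level was close to background. The change was 0.66 ± 0.10 (SE, adjusted p = 0.0059), a fold of 1.58, and the two-sided permutation test, exact over all 70 ways to divide the arrays 4 and 4, gave p = 0.029, its smallest possible value. In the deposited intensities, before any normalization, the probe had 80.7, 89.5, 92.8 and 92.4 in null replicates 1 to 4, against 77.4, 64.2, 70.1 and 67.6 in wildtype replicates 1 to 4, which were also apart but close. The call held without null replicate 1 (0.62, adjusted p = 0.017) and without null replicates 2 and 3 (0.76, adjusted p = 0.012). The size depended on the treatment of background, since the change was 0.37 with none and 0.31 with another correction, and the call was lost with the scaling by median and median absolute deviation that the methods name (0.65, adjusted p = 0.14). The other Tbx2 probe was not above background on any array.

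Tbx3, which acts in the margins of the limb bud and whose loss in the mouse affects posterior limb elements, was lower in the null by its brightest probe. That probe had 8.71, 9.14, 9.16 and 8.74 in null replicates 1 to 4, against 9.91, 9.53, 9.78 and 9.55 in wildtype replicates 1 to 4. Every null array lay below every wildtype array, and null replicates 1 and 4 were the lowest. The change was -0.76 ± 0.14 (SE, adjusted p = 0.016), so that the level was 1.69-fold lower in the null, and the exact permutation test gave p = 0.029. The deposited intensities were 362, 667, 685 and 450.0 in null replicates 1 to 4 and 1184, 721, 979 and 629 in wildtype replicates 1 to 4, so that before normalization null replicates 2 and 3 lay above wildtype replicate 4. Without null replicate 1 the change was -0.68 (adjusted p = 0.039), and without null replicates 2 and 3 it was -0.97 (adjusted p = 0.0089). The call was lost with the methods' scaling (-0.72, adjusted p = 0.38), with equal medians alone (-0.74, adjusted p = 0.13), in the authors' processed table (-0.69, adjusted p = 0.13) and with the methods' t-test (adjusted p = 0.075).

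The further Tbx3 probes had changes of the same sign that did not pass the test. The second probe had 7.75, 8.27, 8.38 and 8.09 in the null, against 8.72, 8.23, 8.71 and 8.17 in the wildtype. These groups overlapped, as null replicates 2 and 3 lay above wildtype replicates 2 and 4, and the change was -0.34 ± 0.17 (SE, adjusted p = 0.37). The third, a dim probe, had 4.83, 4.98, 5.15 and 4.89 in the null, against 5.34, 4.96, 5.22 and 5.45 in the wildtype (-0.28 ± 0.12 SE, adjusted p = 0.26). All 3 probes are annotated to the same RefSeq transcript. The remaining probe, annotated to a cDNA clone, was detected on 2 wildtype arrays and on no null array, with 4.65, 4.60, 4.51 and 4.65 in the null and 5.56, 4.82, 5.55 and 5.08 in the wildtype. This probe did not pass the filter and was not tested. Its wildtype values include arrays that did not detect it, so no least fold is given.

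Tbx4, the T-box gene of the hindlimb and the chromosomal neighbour of Tbx2, had higher values in the null but did not pass the test. Its brighter probe had 10.03, 9.22, 9.23 and 9.12 in null replicates 1 to 4, against 8.61, 9.02, 8.68 and 8.89 in wildtype replicates 1 to 4. The groups did not overlap, yet null replicate 1 stood well above the other null arrays, and null replicate 4 was close to the highest wildtype array. The change was 0.60 ± 0.19 (SE, adjusted p = 0.14, 95% interval 0.16 to 1.03), with an exact permutation p = 0.029. With array weights it was 0.45 and passed at gene level (adjusted p = 0.048 over genes) but not at probe level (0.055). Without null replicate 1 the change was 0.39 (adjusted p = 0.12). The dimmer Tbx4 probe had 5.89, 5.33, 5.11 and 5.26 in the null, against 5.03, 5.15, 5.18 and 4.80 in the wildtype (0.36 ± 0.16 SE, adjusted p = 0.31), and 0.19 without null replicate 1. The array with the highest Tbx4 by both probes was the one that carried Hoxc10 and Pitx1, and the part of the hindlimb genes in the Tbx4 difference was not tested.

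Tbx5, which is needed for the forelimb bud to form, did not pass the test. It had 5.20, 5.71, 6.06 and 5.96 in null replicates 1 to 4, against 6.17, 5.56, 6.10 and 5.76 in wildtype replicates 1 to 4. Null replicate 1 was the lowest of the 8 arrays, and the other null arrays lay within the wildtype range. The change was -0.17 ± 0.20 (SE, adjusted p = 0.74) with a 95% interval of -0.62 to 0.29, and 0.013 without null replicate 1. So the array with the most Tbx4 and with detected Pitx1 also had the least Tbx5. Over the 8 arrays the brighter Tbx4 probe and Tbx5 had a Pearson r of -0.80, a description over arrays that share their normalization and that includes null replicate 1. The other Tbx5 probe was not above background on any array.

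**Figure D2:**
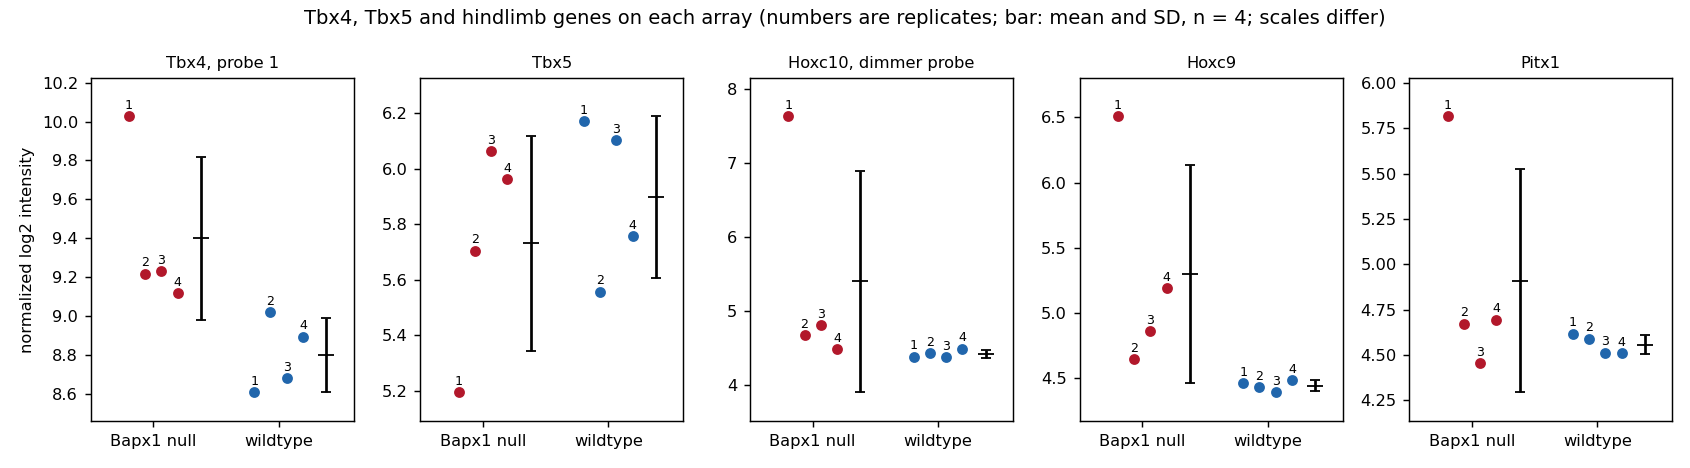
Normalized log2 intensity of Tbx4, Tbx5 and 3 hindlimb genes on each array, Bapx1 null left and wildtype right, with replicate numbers at the points and mean and SD as bars (n = 4). Null replicate 1 is highest for Tbx4, Hoxc10, Hoxc9 and Pitx1 and lowest for Tbx5, and the scales differ between panels.

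Tbx15, which shapes the shoulder blade, had nearly the same level in both genotypes. Its brighter probe had 8.72, 9.06, 9.05 and 8.92 in the null, against 8.97, 8.95, 8.92 and 8.93 in the wildtype. The wildtype arrays lay close together and the null arrays on both sides of them, with null replicate 1 lowest. The change was -0.0047 ± 0.089 (SE, adjusted p = 0.99), and its 95% interval ran from -0.20 to 0.19. The dimmer probe was detected on 1 wildtype array and on no null array and had means of 4.87 in the null and 4.82 in the wildtype.

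Tbx18, a gene of limb and somite mesenchyme, varied more between arrays of a genotype than between genotypes. It had 9.44, 9.88, 10.04 and 8.998 in null replicates 1 to 4, against 9.29, 8.71, 10.07 and 9.26 in wildtype replicates 1 to 4. The lowest and the highest value both belonged to the wildtype, and among the null arrays replicates 2 and 3, the ones with low Xist, were highest. The change was 0.25 ± 0.30 (SE, adjusted p = 0.73) with a 95% interval of -0.41 to 0.92, and it was -0.11 without null replicates 2 and 3. Single arrays moved it widely, to 0.047 without wildtype replicate 2 and to 0.50 without wildtype replicate 3. Its other probe was not above background on any array.

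Tbx1, known from the pharyngeal arches, was near the limit of detection. It was detected on 2 null and 2 wildtype arrays, with 5.67, 4.66, 5.09 and 4.91 in the null and 5.65, 5.68, 4.92 and 5.08 in the wildtype. The groups overlapped throughout, and the change was -0.25 ± 0.24 (SE, adjusted p = 0.66), with values from -0.44 without null replicate 1 to -0.11 without null replicate 2. Tbx20, a gene of the developing heart, had 4 probes and Tbx22, a gene of palate formation, had 3, and none of the 7 was above background on any array. Their means lay between 4.34 and 4.59 in the null and between 4.31 and 4.57 in the wildtype, and at this brightness no difference could be measured.

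**Figure D3:**
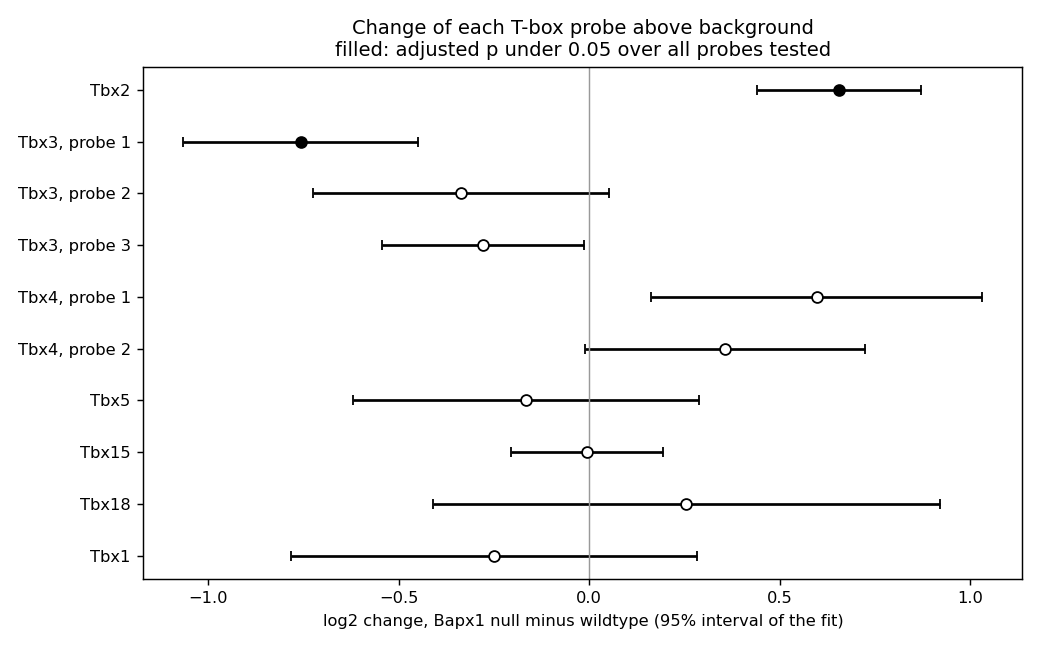
Log2 change, Bapx1 null minus wildtype, of the 10 T-box probes above background, with the 95% interval of the fit. Filled points passed an adjusted p of 0.05 over all probes tested, which are Tbx2 at 0.66 and the first Tbx3 probe at -0.76, and open points did not.

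Across the arrays Tbx2 and Tbx3 ran in opposite directions, with r = -0.95 over 8 arrays for the called probes, a value that contains the difference between the genotypes and is given as a description. The genes whose levels followed the members most closely over the 8 arrays were chosen by Pearson r from all genes tested. For Tbx2 they were Irx6 (r = 0.99) and Phf20 (0.98), and for Tbx3 they were Me2 (0.99) and Gucy1b1 (0.99). For Tbx4 they were Igsf9 (0.99) and Palm (0.98), and for Tbx5 they were Spryd7 (0.94) and Zfp72 (0.94). Cdyl (0.98) and Thap1 (0.98) followed Tbx15, Hspa4 (0.99) and Zfp938 (0.95) followed Tbx18, and 2810004N23Rik (0.93) and Flywch2 (0.91) followed Tbx1. With 8 arrays and this many genes such values are reached readily, and they describe these arrays only. Of the 4 protein-coding genes that flank the pairs on chromosomes 11 and 5, 0 were called in the limma fit (1 at an unadjusted p under 0.05). The lowest adjusted p among them was 0.054, that of Med13l beside Tbx3 and Tbx5. Med13l was higher in the null by 0.78 ± 0.19 (SE), with no overlap between groups.

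Of the rest of the T-box family 7 genes were named on the array and 3 were above background. Eomes, known from early mesoderm and the brain, was called by 1 of its probes. That probe had 11.02, 10.90, 10.89 and 10.84 in null replicates 1 to 4, against 10.63, 10.36, 10.53 and 10.40 in wildtype replicates 1 to 4. All null arrays lay above all wildtype arrays, and the change was 0.43 ± 0.09 (SE, adjusted p = 0.024, exact permutation p = 0.029). The second Eomes probe, with means of 7.96 ± 0.35 in the null and 7.90 ± 0.22 in the wildtype (SD, n = 4 each), had a change of 0.06 ± 0.18 (SE, adjusted p = 0.90). Leaving out 1 array ended the call of the first probe in 6 of 8 cases (adjusted p up to 0.071). The call was also lost without null replicates 2 and 3 (0.45, adjusted p = 0.067), with the methods' scaling (0.50, with an adjusted p near 1), with equal medians (adjusted p = 0.14), in the authors' table (0.13), with the methods' t-test (0.052), with the replicate block (0.066) and with the Y-linked level as a covariate (0.056). Tbx6, a gene of the presomitic mesoderm, was at 0.17 ± 0.13 (SE, adjusted p = 0.58), and Mga, which encodes a protein with both a T-box and a Myc-type domain, was at 0.20 ± 0.13 (SE, adjusted p = 0.50). Tbx10, Tbx19, Tbx21 and Tbr1 were not above background on any array.

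Genes that act upstream of, with or downstream of the T-box factors were examined through lists, with adjusted p-values over the 11037 genes. Over all genes 2.44% were called higher and 2.98% lower in limma, and 3.58% were called by the methods' t-test at gene level. At an unadjusted p under 0.05 in limma there were 19.1% (9.4% higher and 9.75% lower in the null). These shares are the background for the counts that follow. Among 9 measured genes of the signals that act on Tbx2 and Tbx3 in the limb bud, 1 was lower and 0 higher in limma (3 lower and 1 higher at an unadjusted p under 0.05, and 1 called by the methods' t-test), with a median of -0.20. The lower gene was Grem1, an antagonist of BMP signals. Tbx2 is also known to repress Grem1 in the mouse limb bud, but the gene was counted in this list only. The part of Tbx2 in its change was not tested. Grem1 had 8.57, 8.39, 8.33 and 8.58 in null replicates 1 to 4, against 9.54, 9.14, 9.60 and 9.21 in wildtype replicates 1 to 4, so that the groups did not overlap. It fell by 0.90 on the log2 scale in the null (SE 0.12, adjusted p = 0.0029), a call that the methods' scaling ended (-0.85, adjusted p = 0.36) and that held without null replicate 1 (-0.94, adjusted p = 0.0093) and without null replicates 2 and 3 (-0.80, adjusted p = 0.025). Bmp4 at -0.35 (adjusted p = 0.15) and Bmp7 at -0.20 (adjusted p = 0.35), which code for BMP ligands, did not pass. Probes of Ptch1, the receptor of hedgehog signals, had changes of opposite sign. The brighter was at -0.21 (adjusted p = 0.40). A dimmer probe, detected on all null arrays and no wildtype array, had means of 5.36 ± 0.07 in the null and 5.01 ± 0.10 in the wildtype (SD, n = 4 each). It was at least 1.09-fold higher under each background treatment. This probe passed the filter through the null arrays alone, so its adjusted p in limma (0.040 over probes) is not taken as support. Shh, the posterior signal of the limb bud, was detected by 1 probe on 2 arrays, null replicates 2 and 3. That probe had 5.53 and 5.74 there, against 4.43 and 4.57 in null replicates 1 and 4 and 4.37 to 4.47 in the wildtype. The other Shh probe was detected on no array, with 4.39, 5.03, 4.88 and 4.44 in null replicates 1 to 4 and 4.44 to 4.64 in the wildtype.

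A list of genes that Tbx2 or Tbx3 is known to repress, which did not hold Grem1, had 4 genes measured. In limma 1 was higher and 1 lower (1 and 1 at an unadjusted p under 0.05, and 1 called by the methods' t-test). Gja1, the gap junction gene for connexin 43, had 13.77, 13.68, 13.73 and 13.73 in the null, against 13.35, 13.23, 13.20 and 13.30 in the wildtype, and rose by 0.46 ± 0.07 (SE, adjusted p = 0.0051). Gja5, the gene for connexin 40, which is also expressed in the endothelium of arteries, had 5.72, 5.76, 5.64 and 5.58 in the null, against 6.11, 6.75, 6.71 and 6.91 in the wildtype. It changed by -0.95 ± 0.16 (SE, adjusted p = 0.0074). By these probes the groups did not overlap for either gene. The methods' scaling ended both calls (0.44 with an adjusted p near 1 for Gja1, and -0.98 with adjusted p = 0.14 for Gja5). The Gja1 call was also lost with equal medians (adjusted p = 0.090), in the authors' table (0.057) and with the replicate block (0.051), and that of Gja5 with the methods' t-test over probes (0.066). Both held without null replicate 1 (0.44 for Gja1 and -0.96 for Gja5) and without null replicates 2 and 3 (0.48 and -0.97). Dimmer Gja5 probes were at -0.79 with no overlap (adjusted p = 0.035 over probes) and at -0.32 with overlapping groups (adjusted p = 0.43 over probes). The latter probe did not pass. The cell cycle inhibitor gene Cdkn1a at -0.25 (adjusted p = 0.43) and the cadherin gene Cdh1 at -0.33 (adjusted p = 0.34) did not pass.

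Among 11 measured genes for cofactors of T-box proteins, 1 was higher and 0 were lower in limma (3 and 2 at an unadjusted p under 0.05, and 1 called by the methods' t-test), with a median of 0.10. This was Tle4, a corepressor of the Groucho family, at 12.08, 12.19, 12.22 and 12.16 in the null against 11.91, 11.76, 11.85 and 11.62 in the wildtype (0.38 ± 0.08 SE, adjusted p = 0.030). Over probes this call was lost in 7 of 14 other settings (with an adjusted p near 1 under the methods' scaling, and 0.13 without null replicates 2 and 3) and in 7 of the 8 cases with 1 array left out (adjusted p up to 0.11, and 0.0501 without null replicate 1). Dimmer Tle4 probes were at 0.72 with no overlap (adjusted p = 0.077 over probes) and at 0.69 with overlapping groups (adjusted p = 0.24). The mean over the Tle4 probes was 0.60 (adjusted p = 0.056 over genes). A second corepressor gene of the family, Tle1, was at 0.28 (adjusted p = 0.097) by its brightest probe. It was at 0.36 by another that was called over probes (adjusted p = 0.037), and neither Tle1 probe overlapped between groups. Of 4 measured shoulder girdle genes, 0 were higher and 2 lower in limma (1 and 2 unadjusted, and 2 called by the methods' t-test), namely the homeobox genes Alx1 and Alx4. Alx1 had 5.59, 5.58, 5.52 and 5.67 in null replicates 1 to 4, against 6.80, 6.79, 6.38 and 6.79 in wildtype replicates 1 to 4. It changed by -1.10 ± 0.11 (SE, adjusted p = 6.6e-04) and kept its call in every alternative run, also without null replicate 1 (-1.10) and without null replicates 2 and 3 (-1.06). Alx4 had 7.78, 7.44, 7.51 and 7.74 in the null, against 8.18, 8.21, 8.19 and 8.56 in the wildtype (-0.67 ± 0.12 SE, adjusted p = 0.0098). Its call was lost with the methods' scaling (-0.64, adjusted p = 0.88) and without null replicates 2 and 3 (-0.53, adjusted p = 0.058) but held without null replicate 1 (-0.72, adjusted p = 0.019). Of the 9 measured genes of the early forelimb field 0 were called at gene level in limma and 0 by the methods' t-test, although 5 were lower at an unadjusted p under 0.05, and the median was -0.23. The largest changes in this list were those of Meis2 (-0.90 ± 0.25 SE, adjusted p = 0.080) and Meis1 (-0.78 ± 0.26 SE, adjusted p = 0.13), homeobox genes of the proximal limb, each with no overlap between groups. By its probe of highest mean, Meis2 had 9.50, 8.97, 9.01 and 9.52 in the null, against 10.94, 10.04, 9.87 and 9.75 in the wildtype. A dimmer Meis2 probe was called over probes, at -1.18 ± 0.25 (SE, adjusted p = 0.033), with 6.08, 5.75, 5.82 and 6.51 in the null against 7.95, 7.17, 6.89 and 6.85 in the wildtype. The 2 measured hindlimb genes, Hoxc10 (0.31 ± 0.23 SE, adjusted p = 0.53) and Isl1 (0.11 ± 0.20 SE, adjusted p = 0.82), did not pass. In the lists of limb connective tissue (7 genes measured) and limb mesenchyme (9 measured) 0 genes passed in limma or in the methods' t-test. At an unadjusted p under 0.05 in limma, 2 connective tissue genes were higher and 2 lower, with a median of 0.082 over the list. In the mesenchyme list 3 were higher and 2 lower, with a median of 0.081. The directions were thus mixed in both lists. The largest changes were those of Osr1 at -0.39 (adjusted p = 0.22) and Tcf7l2 at -0.34 (adjusted p = 0.16) in connective tissue. In mesenchyme they were those of Meis2, given above, and Shox2 at -0.65 (adjusted p = 0.24).

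**Figure D4:**
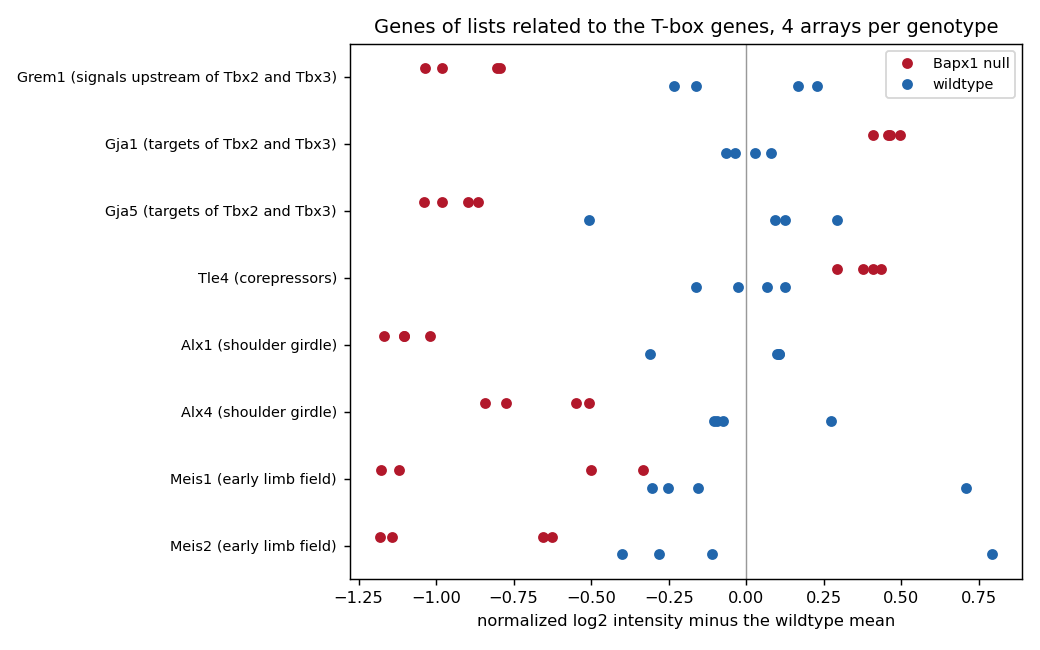
Normalized log2 intensity of 8 genes of the related lists, each array minus the wildtype mean of that gene, with Bapx1 null above wildtype in each row (4 arrays each). The null points of Grem1, Gja5, Alx1 and Alx4 all lie left of the wildtype points and those of Gja1 and Tle4 right of them, while Meis1 and Meis2, which did not pass at gene level by the probes shown, are lowest in null replicates 2 and 3.

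Markers of other cells of the limb bud moved with the genotype beside these changes. Of 9 measured platelet and megakaryocyte genes 8 were lower in the null, where their summed normalized intensity was 758 to 3033, against 10047 to 18295 in the wildtype. Of 8 macrophage and leukocyte genes 6 were lower (281 to 334 in the null, against 993 to 1706 in the wildtype). Tyrobp and C1qb among these were detected on all 4 wildtype arrays and on no null array, so they passed the filter through the wildtype alone. Cd14, Ptprc and C1qa did not pass it. Of 9 skeletal muscle genes 6 were lower (2535 to 3022, against 3822 to 4450 in the wildtype). Of 8 endothelial genes 3 were lower (778 to 905, against 984 to 1251 in the wildtype). These counts stand beside 2.98% of all genes. The methods' t-test called 3 of the platelet, 6 of the macrophage, 5 of the muscle and 1 of the endothelial genes. Of 5 epithelial, 6 erythroid, 1 heart muscle and 1 Schwann cell gene measured, 0 were called in limma or by the methods' t-test, and at an unadjusted p under 0.05 there were 2 epithelial genes and 1 Schwann cell gene. The part of these cells in the changes of Tbx2, Tbx3, Gja5 and the other genes was not tested. In sorted cells profiled in bulk, fewer cells of a type and less RNA per cell cannot be told apart.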

How the data were processed

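Forelimb cells of 4 Bapx1 null and 4 wildtype samples were measured on Illumina MouseWG-6 arrays, 1 array each, with biotin-labelled cRNA. The methods call the samples biological replicates and name GenomeStudio, whose version the sources used here do not give, for subtracting background. As deposited, the table of probe intensity holds no value below 0 and was taken as not background-subtracted and not normalized. The authors also deposited a detection value as a fraction, headed as a p-value, which rises with brightness (Spearman 0.98 on each array), so the detection p was computed as 1 minus this value. A further table that the authors deposited holds processed log2 values per probe, whose column medians lay between -0.015 and 0.014. From array to array its values differ by the same amounts as the log2 intensity, so that scale and direction are known, while the baseline removed from each probe is not.

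Those differences also paired the 45281 rows of one table with those of the other, each with a single partner (largest distance 2.7e-06, tolerance 1e-04 on the log2 scale). The platform annotation names 1 gene for 34885 probes, several for 18 and none here for 10378. Symbols were checked against the RefSeq gene table of GRCm38.p6. No build is given for the arrays, and no coordinates are used.

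The function nec of limma 3.58.1 (R 4.3.3) removed background with an offset of 16, taking the negative controls from the detection p. Quantile normalization and log2 followed. A probe was kept if detected at p under 0.05 on at least 4 of 8 arrays. The genotypes were then tested by lmFit and eBayes, two-sided, with Benjamini-Hochberg adjustment over 20593 probes. For gene level, the kept probe of highest mean stood for its gene, and the adjustment was over 11037 genes. Adjusted p-values of T-box probes, of Bapx1 and of all alternatives are over probes, and those of genes in the related lists over genes. For the Bapx1 probes and the dimmer Ptch1 probe, not above background in the whole wildtype group, a bound is printed. This bound is the mean of the brighter group against the higher of the probe's own signal and the lowest detected signal of each array. The number of arrays limits the precision.

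All member probes, the other T-box genes above background and the 2 genes closest to each member were named. From the lists of signals, targets, cofactors, shoulder girdle, early forelimb field, hindlimb, connective tissue and mesenchyme the called genes were named. Where none was called in such a list, the 2 with the largest change were named. Genes of the lists of other cell types were counted, and most were not named. Shh, Ptch1, Tle1, Hoxc9, Hoxc11, Pitx1, Bmp4, Bmp7, Cdkn1a, Cdh1 and Med13l were singled out once their values were known. So were Tyrobp, C1qb, Cd14, Ptprc, C1qa, the dimmer Meis2 probe, the further probes of Gja5 and Tle4 and the markers in the opening. The members, the lists and the tests were chosen with earlier results of these data known. The chain was tested on simulated arrays. Array chips are not named in columns or labels.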

Additional observations from a re-analysis of the deposited data

Results flagged for a closer look

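In the brighter Tbx4 probe, null replicate 1 (10.03) stood far from the other null arrays, of which the nearest had 9.23, and the gap was 0.875 of the whole range of the group. In the dimmer Hoxc10 probe the same array (7.63) stood apart from the next null array (4.80), with a gap of 0.896 of the range. For Alx1, wildtype replicate 3 (6.38) lay below the other wildtype arrays (next 6.79, gap 0.985 of the range), and for Alx4 wildtype replicate 4 (8.56) lay above them (next 8.21, gap 0.927 of the range). Chance flags about 1 in 20 groups.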

How the results depend on the processing

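Of the 2 T-box probes called, 0 remained called with scaling by median and median absolute deviation, and 1 with equal medians only, in the authors' processed table, with a filter for detection on all 8 arrays, with the methods' t-test and with the replicate block. The count of T-box genes called was 0 with that scaling and 1 with equal medians, the authors' table, the filter for all 8 arrays, the methods' t-test and the mean over a gene's probes, while it was 2 with the replicate block and 3 with array weights, Tbx4 being the addition. Leaving out any 1 array left 2 probes and 2 genes called. Of 812 probes called in all, the counts were 115 with scaling by median and median absolute deviation, 413 with equal medians only, 333 in the authors' table, 1872 with array weights, 382 with the methods' t-test (3454 before adjustment), 433 with the replicate block, 1739 with the Y-linked level as a covariate and 451 to 648 without 1 array. Of the calls 46.3% were higher in the null, against 27.0% with scaling by median and median absolute deviation.

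Changes of sign were limited to probes that were not called. Tbx5 was at 0.013 without null replicate 1 (-0.28 to 0.013 without 1 array). Tbx15 was at 0.016 with scaling by median and median absolute deviation, 0.0087 with equal medians, 0.011 in the authors' table, 0.093 with array weights and between -0.045 and 0.067 without 1 array. Tbx18 was at -0.0090 with the Y-linked level as a covariate and at -0.11 without null replicates 2 and 3. The second Eomes probe was at -0.46 and -0.24 under these settings and between -0.048 and 0.18 without 1 array.

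The correlations of deviations between null and wildtype arrays of the same replicate number were 0.058, 0.24, -0.18 and -0.26. Between arrays of different number they ran from -0.24 to 0.29. These values do not settle whether equal numbers mark pairs, because features of single arrays also enter them. With the replicate block the Tbx3 call was lost over probes (adjusted p = 0.051) but not over genes (0.039), and the Tbx2 call held (adjusted p = 0.017). For Grem1, Alx1, Alx4, Gja1, Gja5 and Tle4 the alternatives were chosen after seeing the data. Alx4 lost its call also with the methods' t-test over probes (adjusted p = 0.062; over genes it was called) and with the Y-linked level (0.090). The causes were not tested. The chip of each array is named in no column or label, so a chip block was not run. Dim probes limit Tbx1, Tbx2, the third Tbx3 probe and the dimmer Tbx4 probe, where small differences could not be seen.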
